A study of Mus musculus with 20 samples.

Results

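The goblet cell is the mucus-secreting cell of the intestinal epithelium, and 10 of its genes other than mucins were examined in the cecum of mice fed resistant potato starch (RPS). The genes were Atoh1, Spdef, Tff3, Fcgbp, Clca1, Zg16, Spink4, Klk1, Agr2, and Krt7. They were picked by name, with earlier results of these data known. All 10 had a row among the 19887 genes of the count table, and all 10 were among the 15348 genes with enough counts to be tested. RNASeq was done on sections of cecum tissue from 20 C57BL/6 mice. From 3 weeks of age all mice received the Total Western Diet (TWD), which models a typical American diet, for 6 weeks. Groups of 5 mice then received the TWD with 0, 2, 5, or 10% RPS for 3 more weeks, so the mice on 0% RPS were also fed the TWD. Within each diet the mice are numbered 1 to 5. Levels are given as CPM, the counts of a gene scaled to a library of 1000000 counts after normalization between libraries. The question was how these genes varied with the amount of RPS.

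Goblet cells arise from progenitors in the crypt that escape Notch signaling and switch on the transcription factor Atoh1, and Spdef then drives their maturation. Mature goblet cells store large amounts of the gel-forming mucin Muc2, and they secrete with it a set of smaller proteins that shape the mucus layer, hold bacteria away from the epithelium, or aid repair. The cecum is a site of dense bacterial fermentation, where this layer lies between the microbes and the tissue.

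All 10 genes had a lower estimate in mice fed 10% RPS than in mice fed 0% RPS. Zg16, which encodes a lectin-like protein of the mucus that binds gram-positive bacteria, had the lowest estimate of the 10 and was the member past the threshold of an adjusted p of at most 0.05 and a fold change of at least 1.5, a call that was lost with epithelial or smooth muscle marker scores in the fit and without some single mice. The background of genes that passed this threshold downward was 0.495% of all genes tested, against 1 of 10 members. Spink4 also had an adjusted p within 0.05 in this fit, though not in others given with its values, but its fold change was under 1.5, and 2 of 10 members against 1.14% of all genes had a lower level at that adjusted p. In bulk tissue, fewer goblet cells and less RNA per goblet cell cannot be told apart.

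The 3 members whose mice on 5 and on 10% RPS all lay below every mouse on 0% RPS were Zg16, Spink4, and Krt7, and the DNA before the start sites of Zg16 and Krt7 is shown for that reason. Taken singly, this held for 2.04% of all genes on 5% and 3.20% on 10% RPS, and the share that met both was not computed. Each sequence is the 250 bases before the first base of the gene's canonical transcript on GRCm39, read 5′ to 3′ on the gene's strand. The Zg16 window is chr7:126651848-126652097 on the minus strand, and the Krt7 window is chr15:101310033-101310282 on the plus strand. Capitals mark each match to CANNTG, the E-box letters recognized by the helix-loop-helix factors to which Atoh1 belongs.
Zg16: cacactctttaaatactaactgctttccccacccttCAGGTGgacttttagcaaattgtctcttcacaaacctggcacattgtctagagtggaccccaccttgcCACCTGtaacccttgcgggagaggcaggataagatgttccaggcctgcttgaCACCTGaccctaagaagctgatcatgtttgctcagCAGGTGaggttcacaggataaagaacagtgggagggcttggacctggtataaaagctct
Krt7: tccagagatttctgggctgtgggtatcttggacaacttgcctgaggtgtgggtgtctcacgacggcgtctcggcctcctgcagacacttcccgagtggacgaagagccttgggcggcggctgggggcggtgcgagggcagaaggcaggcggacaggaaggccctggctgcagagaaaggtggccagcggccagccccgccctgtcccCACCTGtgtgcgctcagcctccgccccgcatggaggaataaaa
The window of Zg16 held 4 E-boxes and that of Krt7 held 1. Over the 9 member windows examined, 6 held at least 1, and so did 64.8% of the windows of 21770 protein-coding genes. The windows of Atoh1, Spdef, and Tff3 held none. Among the more specific forms, CAGCTG was found in the window of Fcgbp alone and CAGATG in that of Klk1 alone, against 11.9 and 13.0% of all windows. The form CAGGTG, which reads CACCTG on the other strand, was counted only after the sequences had been seen. It stood in the windows of Fcgbp, Zg16, Klk1, and Krt7, against 17.7% of all windows. These 3 forms are special cases of CANNTG, and all motifs were searched on both strands. GGAT, the core letters preferred by Spdef, was in 5 member windows and in 75.9% of all windows. The TATA letters TATAAA were in the window of Zg16 among the members, starting 12 bases before the annotated start, and in 11.9% of all windows. A match describes letters in this window and not binding.

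Levels of different genes were compared per kilobase of the canonical transcript. In mice fed 0% RPS, Zg16 was the most abundant member at 3365 ± 612 CPM per kilobase (SD, n = 5). Next came Tff3 at 1685 ± 186 and Spink4 at 1279 ± 191 CPM per kilobase, and the ranges of these 2 genes overlapped. Agr2 (494 ± 89.8), Fcgbp (383 ± 51.9), and Clca1 (377 ± 95.6 CPM per kilobase) overlapped each with the next. Klk1 followed at 171 ± 26.8 and Krt7 at 28.8 ± 3.82 CPM per kilobase, each apart from its neighbours. The transcription factors came last, with Spdef at 17.3 ± 2.86 and Atoh1 at 16.6 ± 2.10 CPM per kilobase, and their ranges overlapped. In mice fed 10% RPS the first 8 places were the same, and Atoh1 stood above Spdef with overlapping ranges.

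**Figure D1:**
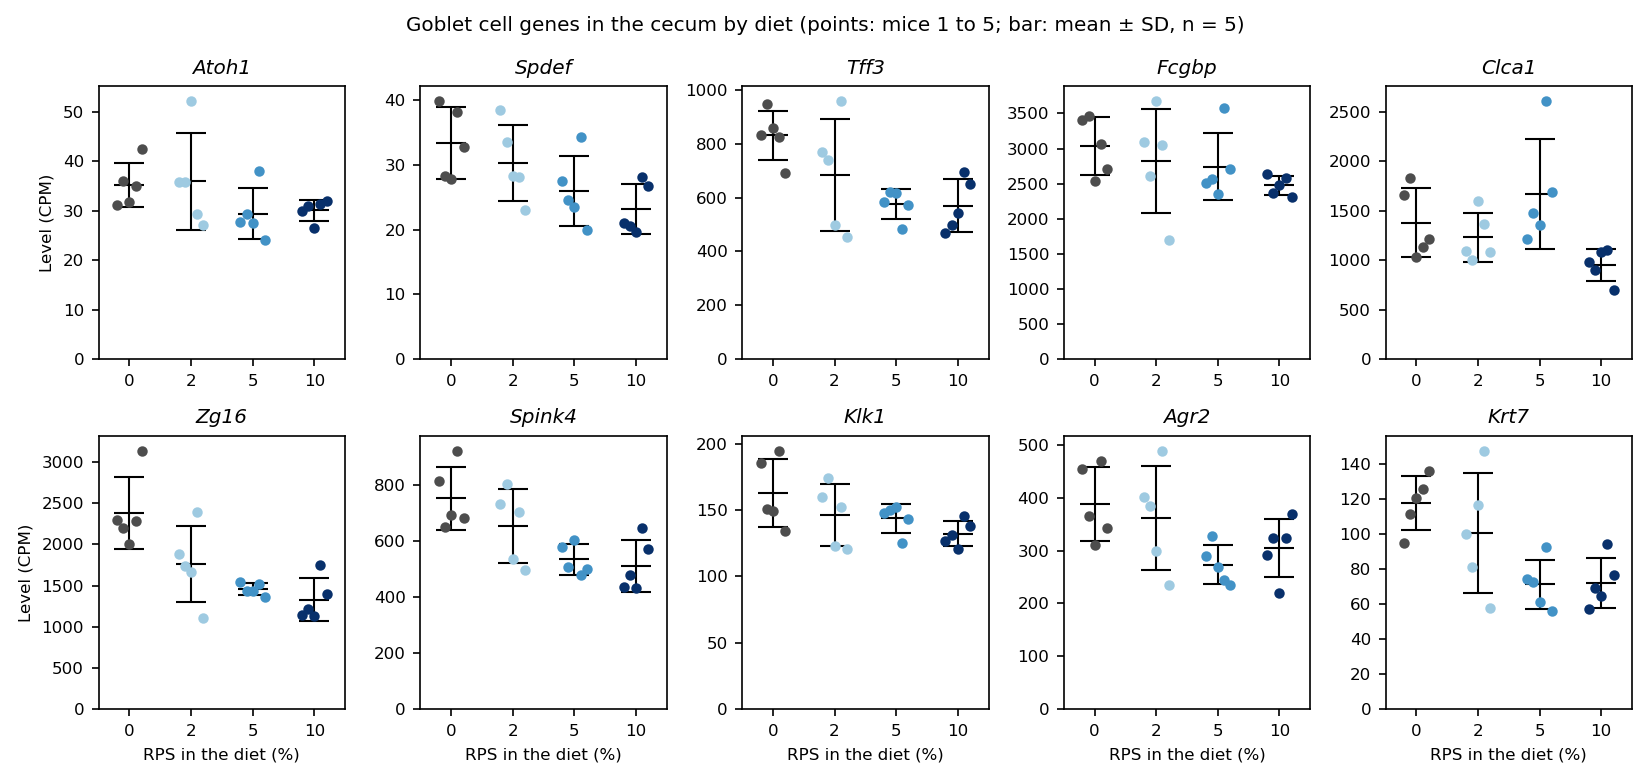
Level of each member in CPM (vertical axes, from 0) in mice fed 0, 2, 5, and 10% RPS (horizontal axes). Points are mice 1 to 5 of each diet, and bars give the mean and SD of 5 mice. The mice on 5 and 10% RPS lie below all mice on 0% RPS for Zg16, Spink4, and Krt7, and for Clca1 the highest mean is on 5% RPS.

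Atoh1 (chr6:64706109-64708229, plus strand) commits progenitors to the secretory lineage. Its mean level was 35.2 ± 4.46, 36.0 ± 9.78, 29.3 ± 5.16, and 30.1 ± 2.16 CPM on 0, 2, 5, and 10% RPS (SD, n = 5). On 0% RPS the mice ranged from 31.2 to 42.3 CPM. On 10% RPS they ranged from 26.4 to 31.9 CPM, so the groups overlapped. The log2 fold change for 10% against 0% RPS was -0.23 (95% confidence interval -0.53 to 0.08, adjusted p = 0.400), the estimate nearest to 0 among the members in edgeR over all 4 diets. With 1 surrogate variable as a covariate it was -0.37 (adjusted p = 0.155), farther from 0 than those of Klk1 (-0.21) and Agr2 (-0.26).

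Spdef (chr17:27933326-27947929, minus strand) acts after Atoh1 in goblet cell maturation. On 0% RPS the 5 mice had 39.7, 28.3, 27.8, 38.2, and 32.6 CPM, and on 10% RPS they had 20.9, 20.6, 19.6, 28.1, and 26.7 CPM. Of the mice on 10% RPS, 4 lay below every mouse on 0% RPS and mouse 4 lay within their range. Means on 2 and 5% RPS were 30.2 ± 5.89 and 25.9 ± 5.36 CPM, so the mean was lower at each higher dose. The log2 fold change for 10% against 0% RPS was -0.53 ± 0.16 (SE, adjusted p = 0.0771), which did not pass the threshold. In DESeq2 the adjusted p was 0.0284 (-0.53), with the fold change under 1.5.

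Zg16 (gene chr7:126649302-126686500, canonical transcript chr7:126649302-126651847, minus strand) was measured with 22520 to 109106 counts per mouse. The mice on 0% RPS had 2299, 2193, 2011, 2279, and 3130 CPM. On 2% RPS the levels were 1885, 1733, 1667, 2390, and 1106 CPM, on 5% RPS they were 1549, 1432, 1429, 1522, and 1357 CPM, and on 10% RPS they were 1138, 1213, 1130, 1754, and 1398 CPM. All 10 mice on 5 and 10% RPS were below the lowest mouse on 0% RPS, and 4 of the 5 mice on 2% RPS were too. Mouse 5 on 0% RPS was the highest and mouse 5 on 2% RPS the lowest of the 20 mice. Against 0% RPS the level was 44.3% lower on 10% RPS, a log2 fold change of -0.84 ± 0.16 (SE, adjusted p = 0.0251). It was 38.8% lower on 5% RPS (log2 fold change -0.71, adjusted p = 0.0610) and 26.3% lower on 2% RPS (log2 fold change -0.44, adjusted p = 0.815), and neither passed in edgeR over all 4 diets. On 5% RPS Zg16 passed in DESeq2 (log2 fold change -0.71, adjusted p = 0.00465) and in an edgeR fit of only the 2 diets (adjusted p = 0.0337). By unadjusted p, Zg16 ranked 26 of 15348 genes for 10% against 0% RPS. With 1 mouse removed at a time, the call held in 16 of 20 fits. It was lost without mouse 5 on 0% RPS (adjusted p = 0.0561) and without mouse 1, 2, or 3 on 10% RPS (adjusted p = 0.0733, 0.05001, and 0.0816), with log2 fold changes over all 20 fits from -0.96 to -0.71. It was also lost with the epithelial score as a covariate (-0.63, adjusted p = 0.148), with the smooth muscle score (-0.74, adjusted p = 0.113), and when the fold change was tested against 1.5 (adjusted p = 1).

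Spink4 (chr4:40920044-40931396, plus strand) encodes a small secreted protein with a Kazal domain, a fold typical of serine protease inhibitors. Levels on 0% RPS were 813.5, 651.3, 692.6, 920.7, and 683.6 CPM. Levels on 10% RPS were 435.0, 477.6, 432.2, 645.2, and 570.5 CPM, and on 5% RPS the range was 479.5 to 604.6 CPM. No mouse on 5 or 10% RPS reached the lowest mouse on 0% RPS, and mouse 4 on 10% RPS came closest to it. On 2% RPS the levels spread from 495.7 to 802.7 CPM across both groups. The log2 fold change was -0.56 ± 0.14 for 10% against 0% RPS (SE, adjusted p = 0.0479), -0.49 for 5% (adjusted p = 0.105), and -0.20 for 2% (adjusted p = 0.903). The adjusted p for 10% RPS was above 0.05 under 6 alternatives that tested for any change. It was 0.0515 without a filter on low counts (log2 fold change -0.55), 0.0667 in a fit of only these diets (-0.55), and 0.105 with 1 surrogate variable (-0.47). With marker scores as covariates it was 0.0975 for B cells (-0.52), 0.233 for epithelium (-0.50), and 0.230 for smooth muscle (-0.36), so the estimate stayed near its size in all but the last. In DESeq2 the adjusted p was 0.00621 for 10% (-0.56) and 0.0329 for 5% RPS (-0.50), with the fold change again under 1.5. With 1 mouse removed at a time it was within 0.05 in 7 of 20 fits and reached 0.148.

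Tff3 (chr17:31344280-31348620, minus strand) is a trefoil peptide that aids the closure of epithelial wounds. The mice on 0% RPS had 830.5, 947.6, 857.9, 823.9, and 692.5 CPM, those on 5% RPS had 585.0, 620.1, 617.5, 482.2, and 571.6 CPM, and those on 10% RPS had 466.8, 499.6, 541.6, 694.6, and 649.0 CPM. The mice on 5% RPS did not overlap those on 0% RPS, and mouse 4 on 10% RPS was just above the lowest of them. Mice on 2% RPS ranged from 452.5 to 956.4 CPM, wider than either. The log2 fold change was -0.54 ± 0.16 for 10% (SE, adjusted p = 0.0813) and -0.53 ± 0.16 for 5% RPS (adjusted p = 0.136). In DESeq2 the adjusted p was 0.0261 for 10% (-0.55) and 0.0564 for 5% RPS (-0.53), with both fold changes under 1.5.

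Clca1 (chr3:144709578-144738537, minus strand), an abundant secreted metalloprotease of mucus, did not follow the order of the doses. The mice on 5% RPS had 1213, 1477, 1356, 2603, and 1693 CPM, the mice on 0% RPS had 1661, 1833, 1035, 1137, and 1219 CPM, and the mice on 10% RPS had 980.0, 905.0, 1083, 1104, and 702.5 CPM. All mice on 5% RPS were above all mice on 10% RPS, and mouse 4 on 5% RPS was the highest of all. Mice on 2% RPS had a mean of 1230 ± 250 CPM. Against 0% RPS the log2 fold change was 0.28 ± 0.20 on 5% RPS (adjusted p = 0.607) and -0.53 ± 0.20 on 10% RPS (adjusted p = 0.161). With 1 surrogate variable as a covariate Clca1 passed the threshold for 10% RPS (-0.76, adjusted p = 0.0444). Between 10 and 5% RPS it was -0.81 ± 0.20, with an unadjusted p of 0.000712 and an adjusted p of 0.9998.

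Fcgbp (chr7:27770661-27820287, plus strand), a large protein bound to Muc2 in mucus, had means of 3035 ± 411, 2823 ± 734, 2743 ± 481, and 2474 ± 138 CPM on 0, 2, 5, and 10% RPS. Klk1 (chr7:43874725-43879048, plus strand), a kallikrein protease, had means of 163 ± 25.6, 146 ± 23.3, 144 ± 10.8, and 132 ± 9.72 CPM. Both means were lower at each higher dose, and both genes overlapped between 0 and 10% RPS. The log2 fold change for 10% against 0% RPS was -0.30 for Fcgbp (95% confidence interval -0.62 to 0.03, adjusted p = 0.304) and -0.30 for Klk1 (95% confidence interval -0.53 to -0.07, adjusted p = 0.144). Klk1 belongs to a cluster of near-identical kallikrein genes, so its counts are uncertain where short reads could have been shared.

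Agr2 (chr12:36042904-36054086, plus strand) is a protein disulfide isomerase of the endoplasmic reticulum needed for mucin folding. The mice on 0% RPS had 455.6, 364.8, 309.9, 469.5, and 342.5 CPM, those on 5% RPS had 289, 327.5, 269.9, 244.6, and 234.7 CPM, and those on 10% RPS had 292.2, 323.7, 220.2, 323.4, and 368.7 CPM. On 5% RPS 4 of 5 mice were below every mouse on 0% RPS, and on 10% RPS 2 of 5 were. Its log2 fold change was -0.51 ± 0.17 for 5% (SE, adjusted p = 0.173) and -0.35 ± 0.17 for 10% RPS (adjusted p = 0.270), and neither passed.

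Krt7 (chr15:101308924-101328194, plus strand), an intermediate filament protein, is the structural member. The mice on 0% RPS had 95.01, 111, 121, 126, and 136 CPM. On 5% RPS they had 74.3, 72.6, 61.4, 92.5, and 56.3 CPM, and on 10% RPS they had 57.0, 69.0, 64.4, 94.2, and 76.7 CPM. All mice on these 2 diets were below all mice on 0% RPS, with mouse 4 of each close to the lowest of them. Mice on 2% RPS ranged from 57.8 to 147 CPM. The level was 38.7% lower on 10% RPS (log2 fold change -0.71 ± 0.20, adjusted p = 0.0666) and 39.35% lower on 5% RPS (log2 fold change -0.72 ± 0.20, adjusted p = 0.0928). Neither passed in edgeR over all 4 diets. In edgeR fits of only the 2 diets compared, both passed (-0.70, adjusted p = 0.0342 for 10% and -0.72, adjusted p = 0.0495 for 5% RPS). DESeq2, also run as an alternative, placed Krt7 past the threshold in both comparisons (adjusted p = 0.0147 for 10% and 0.0228 for 5% RPS). DESeq2 called more genes than edgeR, with 1.03% of the genes it gave an adjusted p lower on 10% RPS and 0.562% lower on 5% RPS. An exon of Krt7 overlaps a noncoding gene, Gm671, on the opposite strand. The study listed Krt7, Tff3, and Agr2 among goblet cell genes downregulated in the cecum at the highest dose of RPS. For 10% against 0% RPS, Krt7, Tff3, and Agr2 did not pass the threshold here in edgeR over all 4 diets. In DESeq2 Krt7 passed, Tff3 had a fold change under 1.5, and Agr2 had -0.35 (adjusted p = 0.224). The study gives larger groups for its RNASeq than those here, so its calls may rest on more mice. These mice belong to that study, so the direction of these genes is not independent evidence.

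**Figure D2:**
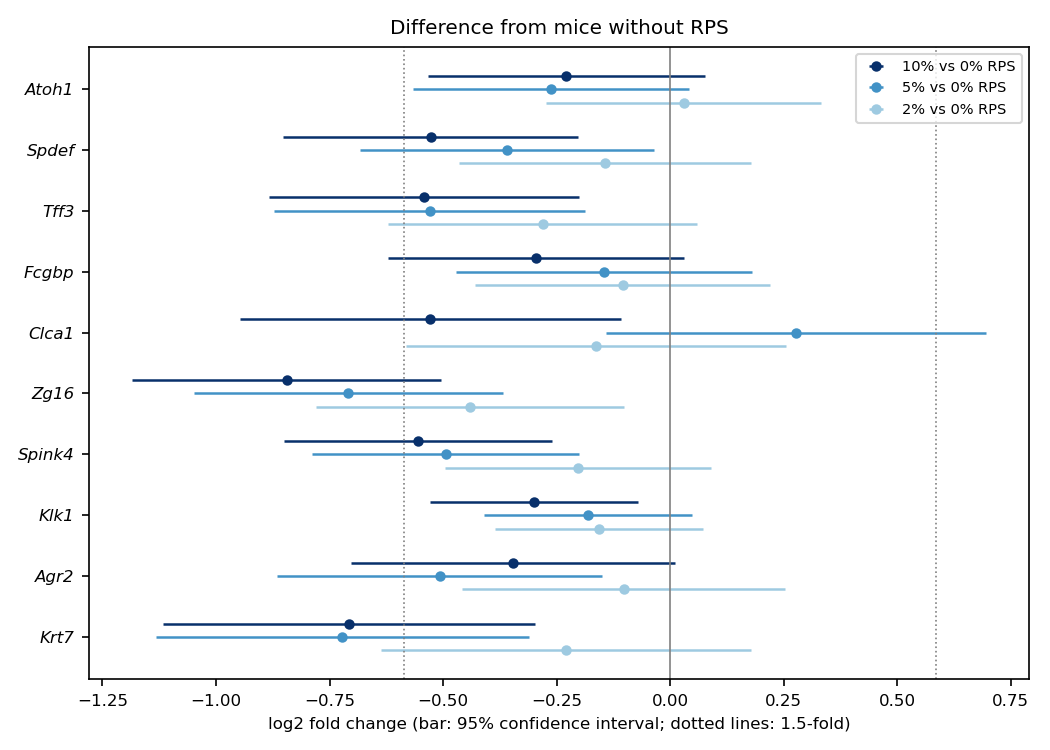
Log2 fold change of each member against mice fed 0% RPS (horizontal axis) for 10, 5, and 2% RPS, with 95% confidence intervals from edgeR. Dotted lines mark a 1.5-fold change. All 10 estimates for 10% RPS lie left of 0, from -0.84 for Zg16 to -0.23 for Atoh1, and that of Clca1 for 5% RPS lies right of 0.

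For 10% against 0% RPS, the 10 lower estimates stood against a background of 49.1% lower estimates among all genes tested. The median log2 fold change was -0.53 over the members and 0.00 over all genes tested. By role, this covered both transcription factors, all 6 secreted proteins, Agr2, and Krt7. An unadjusted p under 0.05 with a lower level was found for 7 of 10 members and for 9.75% of all genes. The exceptions were Atoh1, Fcgbp, and Agr2. All mice on 10% RPS lay below all mice on 0% RPS for 3 members and for 3.20% of all genes. As the members were chosen with earlier results of these data known, these shares describe them and do not test them.

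For 5% against 0% RPS, 0 members passed the threshold in edgeR over all 4 diets, with a background of 0.195%. Zg16 and Krt7 passed it in the edgeR fit of only these diets and in DESeq2, the latter against 0.562% of its genes that were lower. The share of all genes that passed in that edgeR fit is not given, so the calls there have no background. An unadjusted p under 0.05 with a lower level was found for 6 members, against 6.54% of all genes, and 9 of 10 estimates were lower, against 50.5%. The mice of these diets were apart for Zg16, Spink4, Tff3, and Krt7, against 2.04% of all genes. The 10 and 5% comparisons share the mice on 0% RPS and are not independent of each other.

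For 2% against 0% RPS, 0 members passed in edgeR (background 0%), 0 passed in DESeq2 (background 0.0270%), and Zg16 was the member with an unadjusted p under 0.05, against 3.19% of all genes that were lower at that level. An estimate below 0 was found for 9 of 10 members, all but Atoh1, and for 49.0% of all genes. Mouse 5 on 2% RPS had the lowest level of its diet in 9 of 10 members, all but Clca1. Its library was the largest, with 42687283 counts. Without this mouse the log2 fold change of Zg16 for 2% against 0% RPS was -0.31, and the estimates of Fcgbp and Agr2 turned from lower to higher (0.04 and 0.02). On 10% RPS, mouse 4 had the highest level in 7 members, and without it 5 members were past the threshold for 10% against 0% RPS. These were Spdef, Tff3, Zg16, Spink4, and Krt7. The calls over all genes rose as well, to 302 of 15450 genes, of which those lower on 10% RPS were 0.900% of all genes against 0.495% with every mouse. Over the 20 fits with 1 mouse removed, between 14 and 344 genes passed.

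Over the 4 doses together, a linear trend passed an adjusted p of 0.05 for Zg16 and Spink4, 2 of 10 members, against 0.730% of all genes that fell. The slope of Zg16 was -0.08 ± 0.02 log2 per 1% RPS (SE, adjusted p = 0.0333) and that of Spink4 was -0.05 ± 0.01 (adjusted p = 0.0488). All 10 slopes were negative, against 49.5% of all genes, and 7 had an unadjusted p under 0.05, against 9.47%. With 1 mouse removed at a time, the trend stayed within the limit in 14 of 20 fits for Zg16 and in 5 for Spink4. The trend of Zg16 was outside the limit with the epithelial score (-0.05, adjusted p = 0.325), the smooth muscle score (-0.06, adjusted p = 0.164), and 1 surrogate variable (-0.08, adjusted p = 0.0508). The trend of Spink4 was outside it with these as well (-0.05, -0.03, and -0.05, adjusted p = 0.361, 0.232, and 0.109), with the B cell score (-0.05, adjusted p = 0.0929), and without a filter on low counts (-0.05, adjusted p = 0.0526). The mean log2 level was lower at each higher dose in 6 members (Spdef, Tff3, Fcgbp, Zg16, Spink4, and Klk1) and in 10.5% of all genes. Agr2 and Krt7 had their lowest mean on 5% RPS, as did Atoh1.

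Between the RPS diets, 0 members passed the threshold in edgeR or DESeq2 in the comparisons of 5 with 2%, 10 with 5%, and 10 with 2% RPS, each with a background of 0% in edgeR. In DESeq2 the background was 0% for the first 2 comparisons and 0.00540% for 10 with 2% RPS. Unadjusted p-values under 0.05 were found for 3 members between 5 and 2% RPS (Krt7 and Agr2 lower, against 1.71% of all genes, and Clca1 higher, against 1.67%). Between 10 and 5% RPS this held for Clca1, against 1.15% of all genes that were lower, and between 10 and 2% for Spdef, Zg16, Spink4, and Krt7, all lower, against 2.31%. For Zg16 the difference between 10 and 5% RPS was -0.14 log2 with a 95% confidence interval of -0.47 to 0.20. For Tff3 it was -0.01 (-0.35 to 0.33), and for Krt7 it was 0.01 (-0.39 to 0.42). These intervals leave room for differences of the size seen between 2 and 0% RPS.

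Other goblet cell genes, 24 in all and 23 of them tested, were examined beside the members. For 10% against 0% RPS, 0 of them passed the threshold in edgeR over all 4 diets, and DESeq2 placed Bcas1 past it, against 1.03% of its genes that were lower. A lower estimate was found for 18 and a higher one for 5, against 49.1% lower among all genes, with a median log2 fold change of -0.22. An unadjusted p under 0.05 was found for 6 lower and 1 higher, against 9.75 and 9.74% of all genes. The calpain Capn9 had means of 29.3 ± 1.87 CPM on 0% and 20.3 ± 3.77 CPM on 10% RPS (log2 fold change -0.53, adjusted p = 0.0508). Bcas1 had 80.7 ± 8.96 and 53.6 ± 9.75 CPM (-0.59, adjusted p = 0.0644). Every mouse on 10% RPS lay below every mouse on 0% RPS for both genes. The anion channel Best2 (-0.88, adjusted p = 0.161) and Rep15 (-0.31, adjusted p = 0.164) had lower estimates, and the glycosyltransferase Galnt12 had a higher one (0.16, adjusted p = 0.223), without passing. Muc2 itself had 2325 ± 432 CPM on 0% and 1548 ± 169 CPM on 10% RPS (log2 fold change -0.59, adjusted p = 0.172). For 5% against 0% RPS, 0 of the 23 genes passed in that edgeR fit, 6 lower and 1 higher had an unadjusted p under 0.05, against 6.54 and 6.74% of all genes, and DESeq2 placed Ang4 past the threshold, against 0.849% of its genes that were higher. Ang4, an antimicrobial ribonuclease, was singled out after its values were seen. It had 19.2 ± 18.5 CPM on 0% and 112 ± 56.4 CPM on 5% RPS (log2 fold change 2.55, adjusted p = 0.141 in edgeR).

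Of the 12 genes of the Notch pathway, 0 passed the threshold in that fit or in DESeq2 for 10% against 0% RPS, and 4 had an unadjusted p under 0.05, 2 lower and 2 higher, against 9.75 and 9.74% of all genes. The ligand Dll4 (0.28, adjusted p = 0.123) and the receptor Notch2 (0.55, adjusted p = 0.173) had higher log2 estimates, and the target Hes1, a repressor of Atoh1 (-0.30, adjusted p = 0.167), and the ligand Jag2 (-0.40, adjusted p = 0.202) had lower ones. Lfng (0.30, adjusted p = 0.399) and Rbpj (0.24, adjusted p = 0.433) came next. The median log2 fold change of the 12 genes was 0.07, with 5 lower and 7 higher.

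Levels of markers of other cells moved between the diets as well. The summed level of 9 epithelial markers (led by Krt19, Krt8, and Epcam) lay between 11094 and 14956 CPM on 0% RPS. On 10% RPS it lay between 10108 and 13283 CPM, a ratio of 0.871 (two-sided exact permutation test over all assignments of the 10 mice, p = 0.111). The sum of 8 colonocyte markers, led by Car1, Ceacam1, and Krt20, had a ratio of 0.828 (exact permutation p = 0.0397), and Car1 alone went from a mean of 25146 to 18627 CPM, most of the difference of -6698 CPM in the sum. The sum of 7 smooth muscle markers, led by Myh11, Tagln, and Acta2, lay between 2620 and 6118 CPM on 0% RPS. On 10% RPS it lay between 4348 and 7238 CPM, a ratio of 1.56 (exact permutation p = 0.0397). The sum of 6 B cell markers, among them Cd79a and Ms4a1, had a ratio of 3.82 (exact permutation p = 0.0397), with 13.8 CPM in mouse 2 on 10% RPS and 212 to 273 CPM in the other mice of that diet. On 0% RPS, mouse 2 had 196 CPM and the other mice 5.02 to 29.5 CPM, and without that mouse the ratio was 13.2 (exact permutation p = 0.0317), whereas without mouse 2 on 10% RPS it was 4.71. With each of these 10 mice removed in turn, a step chosen after seeing the data, p was within 0.05 in 2 of 10 cases for B cells, 3 for smooth muscle, and 1 for colonocytes. With adjustment over the 10 lists these 3 sums had an adjusted p of 0.132. The sums of T cell (Cd3g, Cd3e, Cd2), enteroendocrine (Chgb, Chga, Insm1), tuft cell (Dclk1, Trpm5, Avil), mesothelial (Msln, Upk1b, Upk3b), and small intestinal (Fabp2, Lyz1, Fabp6) markers had exact permutation p-values of 0.222, 0.302, 0.405, 0.0873, and 0.159. Exocrine pancreas markers, of which 3 of 6 had a row, summed to 0.15 and 0.17 CPM on 0 and 10% RPS.

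By gene, 8 of 9 epithelial markers had a lower and 7 of 7 smooth muscle markers a higher estimate on 10% than on 0% RPS, and Actg2 passed the threshold (log2 fold change 1.28, adjusted p = 0.0358). In DESeq2 Cnn1 passed as well. On 5% RPS all 7 smooth muscle markers were also higher, and Actg2 passed (1.53, adjusted p = 0.0425). DESeq2 placed Actg2, Cnn1, Des, Smtn, and Tagln past the threshold there, against 0.849% of its genes that were higher. Of the 8 colonocyte markers, 4 had a lower and 4 a higher estimate. The anion exchanger Slc26a3 passed upward (0.61, adjusted p = 0.0487), and Car1 was lower without passing (-0.43, adjusted p = 0.0956). With the epithelial or the smooth muscle marker score as a covariate Zg16 lost its call, as given with its values, and with the B cell score its log2 fold change for 10% RPS was -0.87 (adjusted p = 0.0370). For Tff3 the smooth muscle score moved the estimate from -0.54 to -0.20 on 10% (adjusted p = 0.480) and from -0.53 to -0.10 on 5% RPS (adjusted p = 0.838). With this score Spink4 went from -0.49 to -0.24 on 5% RPS. Agr2 went from -0.35 to -0.03 on 10% and from -0.51 to -0.11 on 5% RPS, and Klk1 went from -0.30 to -0.12 on 10% RPS. The 5% estimate of Fcgbp went from -0.15 to -0.08 and that of Clca1 from 0.28 to 0.08. The epithelial score moved Krt7 from -0.71 to -0.44 (adjusted p = 0.357) and Agr2 from -0.35 to -0.18 (adjusted p = 0.763) on 10% RPS. With the B cell score Fcgbp had -0.45 in place of -0.30 on 10% RPS (adjusted p = 0.140). The part of these cells in the lower member levels was not tested beyond these fits.

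**Figure D3:**
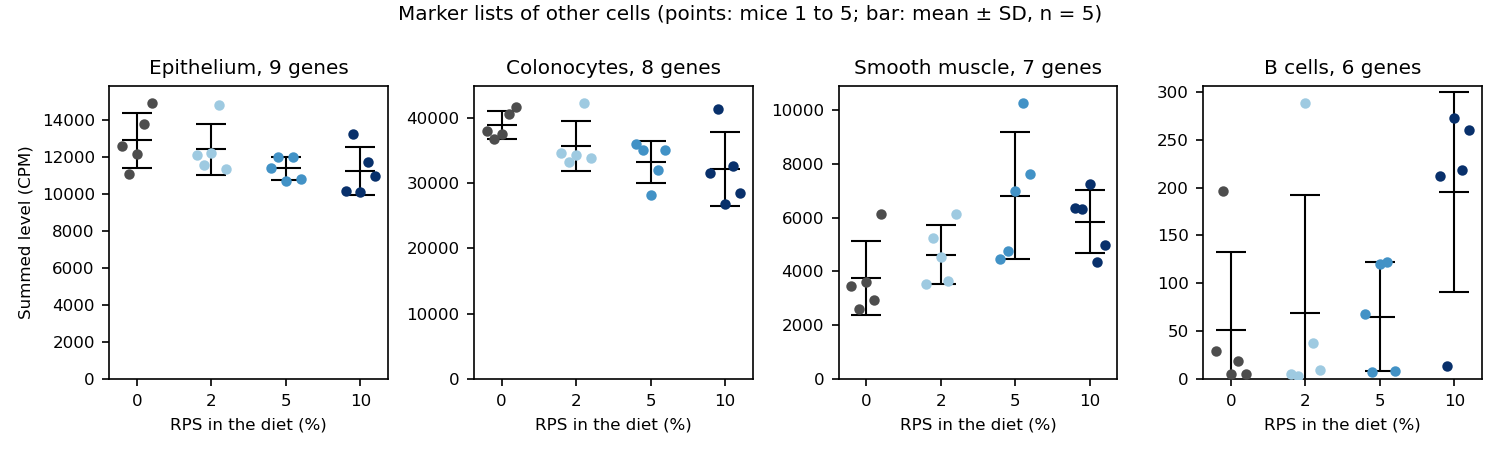
Summed level in CPM (vertical axes, from 0) of markers of epithelium, colonocytes, smooth muscle, and B cells on 0, 2, 5, and 10% RPS (horizontal axes). Points are mice 1 to 5 and bars the mean and SD of 5 mice, cut off at 0. Mean epithelial and colonocyte sums are lower, and mean smooth muscle and B cell sums higher, on 10% than on 0% RPS.

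Mice on the same diet also differed from each other, and members were compared over the 20 mice after the mean of each diet had been subtracted from log2 CPM. Of the 45 pairs, 38 had a positive Pearson r, the median was 0.43, and the range was -0.35 to 0.89. An adjusted permutation p of at most 0.05 over the 45 pairs was found for 9 pairs, all positive. The same shares over pairs of other genes were not computed, so these counts cannot be read as a trait of the members. The closest pair was Spink4 and Klk1 (r = 0.89, rho = 0.90, adjusted permutation p = 0.00045), and r was 0.88 without the 2 mice farthest from the median. Zg16 and Krt7 had r = 0.81 and rho = 0.72 (adjusted permutation p = 0.00555), with r = 0.61 without 2 mice. Fcgbp and Clca1 had r = 0.70 and rho = 0.78 (adjusted permutation p = 0.0045), with r = 0.83 without 2 mice.

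Spink4, Klk1, Agr2, and Tff3 had all 6 of their pairs among the 9, with r from 0.67 for Tff3 and Klk1 to 0.89. The other pair of the 9 was Spdef with Spink4 (r = 0.65, adjusted permutation p = 0.0416). Leaving out 2 mice moved r of Tff3 and Agr2 from 0.69 to 0.47. Clca1 had negative values with Spink4 (-0.35), Klk1 (-0.31), Agr2 (-0.16), and Tff3 (-0.14), none with an adjusted p within 0.05. Atoh1 had no pair within the limit, its value with Spdef being 0.43. Marker scores moved with members among mice of a diet too. Over the same 20 libraries, r with the smooth muscle score was -0.65 for Tff3, -0.60 for Agr2, -0.54 for Klk1, and -0.47 for Spink4, and the other members lay between -0.29 and 0.21. With the epithelial score it was 0.61 for Krt7, 0.56 for Zg16, and 0.45 for Agr2, and the others lay between 0.05 and 0.24. With the B cell score it was 0.51 for Clca1 and 0.48 for Fcgbp, and the others lay between -0.20 and 0.32. With the colonocyte score it was -0.37 for Spdef and -0.36 for Atoh1, and the others lay between -0.18 and 0.09. The part of these cells in the likeness of members was not tested.

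**Figure D4:**
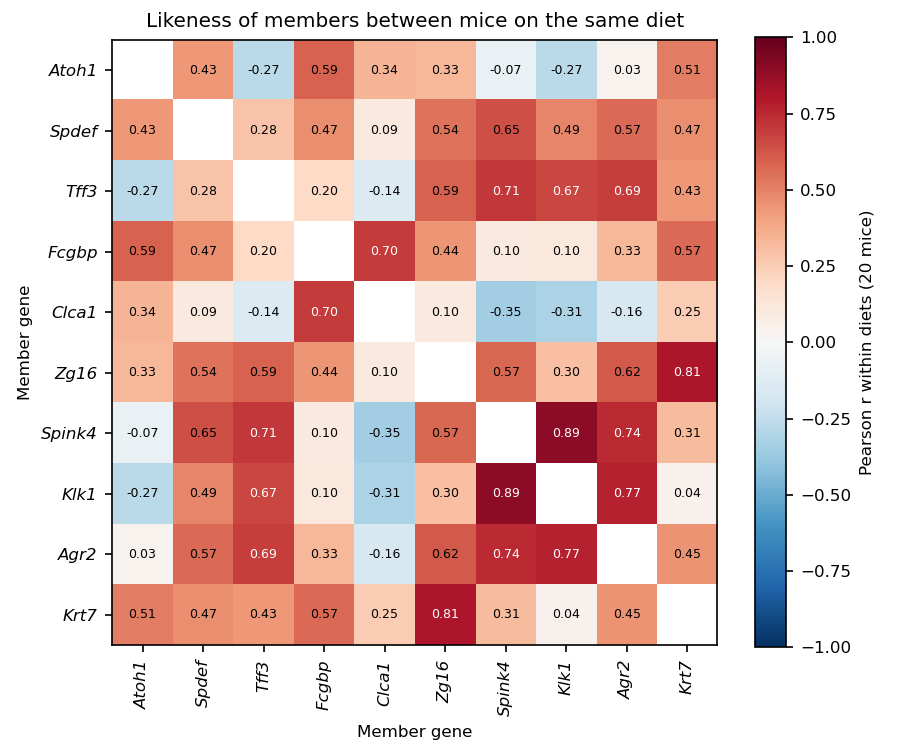
Pearson r of log2 CPM between members (both axes) over 20 mice after subtraction of diet means, with red for positive and blue for negative values. Spink4, Klk1, Agr2, and Tff3 show values from 0.67 to 0.89 among themselves, and Clca1 is closest to Fcgbp at 0.70.

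Of all other genes tested, Zg16 was most like Bcas1 (r = 0.88), Rflnb (0.83), and Grin1 (0.82), and Krt7 was most like Grin1 (0.92), Bcas1 (0.89), and Lpcat4 (0.84). Klk1 was closest to Reg4 (0.94), Gm1123 (0.90), and Sytl2 (0.87), and Spink4 to Rep15 (0.85), Rab27b (0.85), and Reg4 (0.84). Reg4, a secreted lectin, was thus near both. Fcgbp was closest to Ano7 (0.89), Txndc5 (0.88), and Muc2 (0.84), and Agr2 to Slc12a8 (0.86), Ttc39a (0.85), and Adss2 (0.85). Clca1 had C1qb (0.83), Serpina3f (0.82), and Madd (0.82) as its nearest genes. Tff3 had Rock2 (0.83), Mettl18 (0.82), and S100a14 (0.82), Spdef had Arc (0.86), F3 (0.84), and Tead4 (0.84), and Atoh1 had Nono (0.96), Rpl4 (0.92), and Paxip1 (0.90). These r values are the highest of 15338 genes over the same 20 libraries and describe likeness only.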

How the data were processed

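Cecum RNA of 20 mice was sequenced from stranded mRNA libraries. The authors trimmed bases of low quality, used the CLC Genomics Workbench to map single-end reads on GRCm39, and deposited 1 table of raw counts per gene and mouse. The annotation release, the strand setting, and the handling of reads that fit several genes are not given in the sources used here. Gene names and coordinates came from GENCODE mouse release 39, which matched 19827 identifiers and missed 60. The edgeR function filterByExpr set the low-count filter (at least 10 counts, total at least 15). Counts were scaled by TMM and tested with edgeR 4.0.16's quasi-likelihood test over all 4 diets in R 4.3.3, with Benjamini-Hochberg adjustment over 15348 genes. Alternatives used DESeq2 1.42.0 (Wald test) and a surrogate variable from sva 3.50.0. Log2 CPM used a prior count of 2. Correlations had 100000 permutations within diets. On simulated counts of 15348 genes for 10% against 0% RPS, the threshold was passed by 14 of 50 genes with a true 1.5-fold change and by 71 of 99 with a true 2-fold change.

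Library totals were 14967798 to 42687283 counts, and 3 counts were 0.20 CPM in the smallest library. Every member had at least 370 counts in every mouse. Mice were assigned to diets by their labels, so p-values measure the spread between these mice. Whether the mice came from more than 1 experiment is not given by the labels. All 10 members were named, with Muc2, genes past the threshold, and the 6 lowest p-values of the other goblet and Notch lists, 3 nearest genes per member, and 3 top genes per marker list. The promoter window of 1 member and the name of 1 marker gene are not reported here. Members and lists were chosen with earlier results of these data known.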

Additional observations from a re-analysis of the deposited data

Results flagged for a closer look

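No member had a mouse that stood apart from its diet by Dixon's test. Over 56 groups of 5 mice, 40 of them for the members and the others for marker sums, 3 marker sums did, and chance flags about 1 in 20 groups. Mouse 4 on 2% RPS had the highest epithelial sum of its diet, with a gap that was 0.732 of the range of log2 values. The same mouse had the highest colonocyte sum of that diet, with a gap of 0.827 of the range. Mouse 2 on 10% RPS had the lowest B cell sum, with a gap of 0.915 of the range. In mouse 4 on 2% RPS the members Zg16, Tff3, Agr2, and Krt7 were the highest of that diet.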

How the results depend on the processing

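The number of members past the threshold for 10% against 0% RPS was 1. It was 0 with the epithelial score, with the smooth muscle score, and when the fold change was tested against 1.5, and it was 2 with 1 surrogate variable, in a fit of only these diets, without a fold threshold, and in DESeq2. Of all genes, 1.14% were lower and called without a fold threshold, and 1.03% of the genes of DESeq2 were lower past its threshold. For 5% against 0% RPS it was 0, and 2 in a fit of only these diets and in DESeq2. The trend was called for 2 members, for 1 without a filter or with the B cell score, for 0 with the epithelial score, the smooth muscle score, or 1 surrogate variable, and for 5 with the rank of the dose and in DESeq2. The share of all genes called is not given for the trend alternatives, the fits with 1 surrogate variable, or the fits of only 2 diets. The member counts there cannot be read against a background. With single mice removed, the counts ranged from 0 to 5 for 10%, from 0 to 2 for 5%, and from 0 to 5 for the trend, and stayed at 0 for 2% and for neighbouring diets. The causes were not tested. With the smooth muscle score the log2 fold change of Klk1 on 5% RPS was 0.0396, and on 2% RPS that of Agr2 was 0.0413 and that of Atoh1 was -0.00395, which was -0.00406 with 1 surrogate variable. Leaving out a mouse turned 3 estimates for 2% RPS, which ranged from -0.147 to 0.12 for Atoh1, from -0.23 to 0.0221 for Agr2, and from -0.22 to 0.0381 for Fcgbp. The exocrine pancreas sum on 10% minus 0% RPS ranged from -0.0104 to 0.048 CPM. The 10 estimates for 10% RPS stayed below 0 under all alternatives run, and the nearest to 0 was -0.03 for Agr2 with the smooth muscle score. No paired analysis was possible because each mouse was fed 1 diet and the numbers 1 to 5 only name the mice within a diet, in accession order.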
